A study of Mus musculus with 2031 samples.

Results

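The metallothioneins Mt1, Mt2 and Mt3 were chosen by symbol as a small gene family, and each symbol matched 1 row among the 49671 genes counted. Metallothioneins are small, cysteine-rich proteins that bind zinc and copper ions. Mt1 and Mt2 are induced together in many tissues by heavy metals through the zinc-sensing transcription factor MTF1, by glucocorticoids and by oxidative stress, and in the brain they are best known from astrocytes. Mt3, first described as a growth inhibitory factor, is a brain form that is found in astrocytes and in zinc-rich neurons and responds little to metals, and Mt4 belongs to squamous epithelia.

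The counts came from single cells of the cortex and hippocampus of C57BL/6J mice aged to postnatal day 56, with no treatment and no genetic modification in any group. Cells positive for ACSA-2, an antibody to the astrocyte surface protein ATP1B2, and negative for the oligodendrocyte antigen O1 and for the dead-cell dye 7-AAD were sorted 1 to a well and sequenced by Smart-seq2, so any cell of another type had passed an astrocyte gate and its share says nothing of the tissue. There were 4 cell suspensions: each of the 2 cortical suspensions came from 1 animal of a single litter, and each of the 2 hippocampal suspensions was pooled from 4 littermates of another litter, so region and litter cannot be told apart. The suspension was the replicate, but fits over several subtypes or types took the sums of 1 suspension as separate. Cell identities were the study's own cluster labels, which were made from these same counts: 1781 astrocytes in 5 subtypes (657 AST1, 555 AST2, 452 AST3, 91 AST4 and 26 AST5), 135 mural cells of the vessel wall, 30 endothelial cells, 17 neuronal, 11 microglial and 9 oligodendrocytic cells. A further 33 cells, all from cortex suspension 1, were not among the 1998 entries of the label list as read, and 15 had no type. In all, 1983 of 2031 cells were used by type. The paper reports more typed cells and more astrocytes than these, so some of its labels were missing here. Gene counts per cell ran from 600758 to 3238215 with a median of 1458418. All 8 astrocyte markers checked (among them Slc1a3, Aqp4 and Aldoc) were present in every AST1, AST2 and AST3 sum, with a summed level of 38250 to 46970 counts per 1000000 gene counts (CPM), against 390 to 447 CPM in neuronal cells, 677 to 888 CPM in endothelial cells and 3145 to 3485 CPM in mural cells.

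All 4 genes of the family lie on the forward strand of mouse chromosome 8 in the build of the files (GRCm38), within 43131 bases from the start of Mt4 to the end of Mt1. Mt4 spans chr8:94137197-94139031, Mt3 chr8:94152607-94154146, Mt2 chr8:94172664-94173568 and Mt1 chr8:94179082-94180327, each with 3 exons. The exons add up to 536 nt for Mt3, 511 nt for Mt2 and 549 nt for Mt1. Neither Mt1 nor Mt3 overlaps another annotated gene, but 69.5% of the 511 exon bases of Mt2 lie under an antisense gene, Gm45774, on the other strand. Smart-seq2 does not mark the strand and the strand setting of the counting was not given in the sources used here, so an unknown share of Mt2 reads may be missing. Counts, ranks and ratios that set Mt2 beside Mt1 or Mt3 are therefore counts as deposited, and no order of transcript levels was read from them.

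The promoters are shown because Mt1 varied together with Mt2 and with Mt3 over single cells, and because metal response elements (MREs), the sites of MTF1, are the best known element of the family. Each sequence runs 5′ to 3′ on the coding strand from 250 bases before to 50 bases after the RefSeq start site (GRCm38.p6). It lies at chr8:94178839-94179138 for Mt1, chr8:94172368-94172667 for Mt2 and chr8:94152357-94152656 for Mt3. Capitals mark the MRE core, searched as TGCACNC or TGCGCNC on both strands, so a core on the other strand reads as its reverse complement.
Mt1 promoter: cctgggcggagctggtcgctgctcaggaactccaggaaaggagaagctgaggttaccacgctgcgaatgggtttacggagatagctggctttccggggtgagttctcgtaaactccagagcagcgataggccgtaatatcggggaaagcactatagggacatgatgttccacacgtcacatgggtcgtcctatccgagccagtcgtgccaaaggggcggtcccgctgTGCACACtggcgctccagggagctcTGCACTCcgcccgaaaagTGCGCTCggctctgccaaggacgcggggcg
Mt2 promoter: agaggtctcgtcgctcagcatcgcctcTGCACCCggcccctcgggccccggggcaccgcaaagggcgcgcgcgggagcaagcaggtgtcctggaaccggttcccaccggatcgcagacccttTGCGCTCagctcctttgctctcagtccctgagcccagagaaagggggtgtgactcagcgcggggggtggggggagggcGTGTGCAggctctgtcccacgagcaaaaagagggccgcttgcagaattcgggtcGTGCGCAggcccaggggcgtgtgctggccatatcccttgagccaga
Mt3 promoter: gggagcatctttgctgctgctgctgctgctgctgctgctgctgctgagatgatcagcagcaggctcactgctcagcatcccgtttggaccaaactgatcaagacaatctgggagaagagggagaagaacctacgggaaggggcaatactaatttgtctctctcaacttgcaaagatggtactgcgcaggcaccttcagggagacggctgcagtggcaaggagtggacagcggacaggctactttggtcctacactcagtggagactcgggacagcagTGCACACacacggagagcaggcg
The Mt1 window held 3 MRE cores, which began at positions -23, 2 and 20 from the RefSeq start site. The Mt2 window held 4, of which those that began at -223 and -128 were on the coding strand and those that began at -50 and 4 on the other, while the Mt3 window held 1, at position 27. At least 1 core stood in 25.7% of the 32851 RefSeq promoters of the same length and 3 or more in 1.97%. An antioxidant response element (TGACNNNGC, in 12.4% of promoters) was found in the Mt2 window alone, from -79 to -71, and the E-box CACGTG, in 7.15% of promoters, in none of the 3. Such matches describe letters in the window and are not evidence that a factor bound there. Positions hold for the RefSeq start sites only, and the Mt2 start of the gene model, 94172664, lies near its window's end at 94172667. Sequence outside the windows was not searched, so an element missing from a window may stand elsewhere near the gene.

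Mt1 and Mt3 belonged to the most abundant transcripts of these astrocytes. A count of Mt1 was found in 1780 of 1781 astrocytes, a count of Mt3 in 1777 and a count of Mt2 in 1640, or 92.1%, with a 95% exact binomial interval of 90.7% to 93.3%. Intervals of this kind cover counting error only. In sums of counts per subtype and suspension, the rank of Mt1 by count lay within the top 0.274% to 0.794% of genes with a count (median 0.468%), that of Mt3 within the top 0.862% to 3.22% (median 1.42%) and that of Mt2 within the top 15.97% to 60.5% (median 27.6%). Over all cells the files held 3785419 counts of Mt1, 1525442 of Mt3 and 119403 of Mt2, but a single count of Mt4, in 1 cell. The antisense gene Gm45774 had 14829 counts.

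For Mt2 the share of cells with a count moved with depth. After thinning each cell to 50000 gene counts, Mt2 was found in 1278 of 1781 astrocytes (71.8%), whereas Mt1 was still found in 1779 and Mt3 in 1776. At full depth and pooled over suspensions, the share with Mt2 was 485 of 555 cells (87.4%, 84.3% to 90.03%) in AST2 and 80 of 91 (87.9%, 79.4% to 93.8%) in AST4. It was 615 of 657 in AST1 (93.6%, 91.5% to 95.4%), 434 of 452 in AST3 (96.0%, 93.8% to 97.6%) and 26 of 26 in AST5. After thinning the shares were 62.9% in AST2, 74.1% in AST3, 74.7% in AST4, 76.9% in AST1 and 80.8% in AST5. The subtypes drew on the regions unequally and no order was read from these shares: in hippocampus suspension 1 Mt2 was found in 10 of 10 AST2 cells, and after thinning in 70% of them against 67.7% of AST3.

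Mt1 differed little between cells for a gene of its level. Within the 12 subtype and suspension groups with at least 40 cells, the coefficient of variation over cells was 0.398 to 0.577 for Mt1 and 0.366 to 0.586 for Mt3. Genes within 2-fold of the same mean level had group medians of 0.712 to 0.995 beside Mt1 and of 1.02 to 1.33 beside Mt3. Mt2 had a coefficient of 0.621 to 0.858, where genes of like level had group medians of 2.97 to 3.98. Each member was thus below the median of its level in 12 of 12 groups. These genes were matched on mean CPM alone and not on transcript length, and the members were 511 to 549 nt long. The part of length in the lower coefficients was not tested. The single astrocyte without Mt1 was a hippocampal AST1 cell, and the highest Mt1 level in any cell was 5906 CPM.

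**Figure D1:**
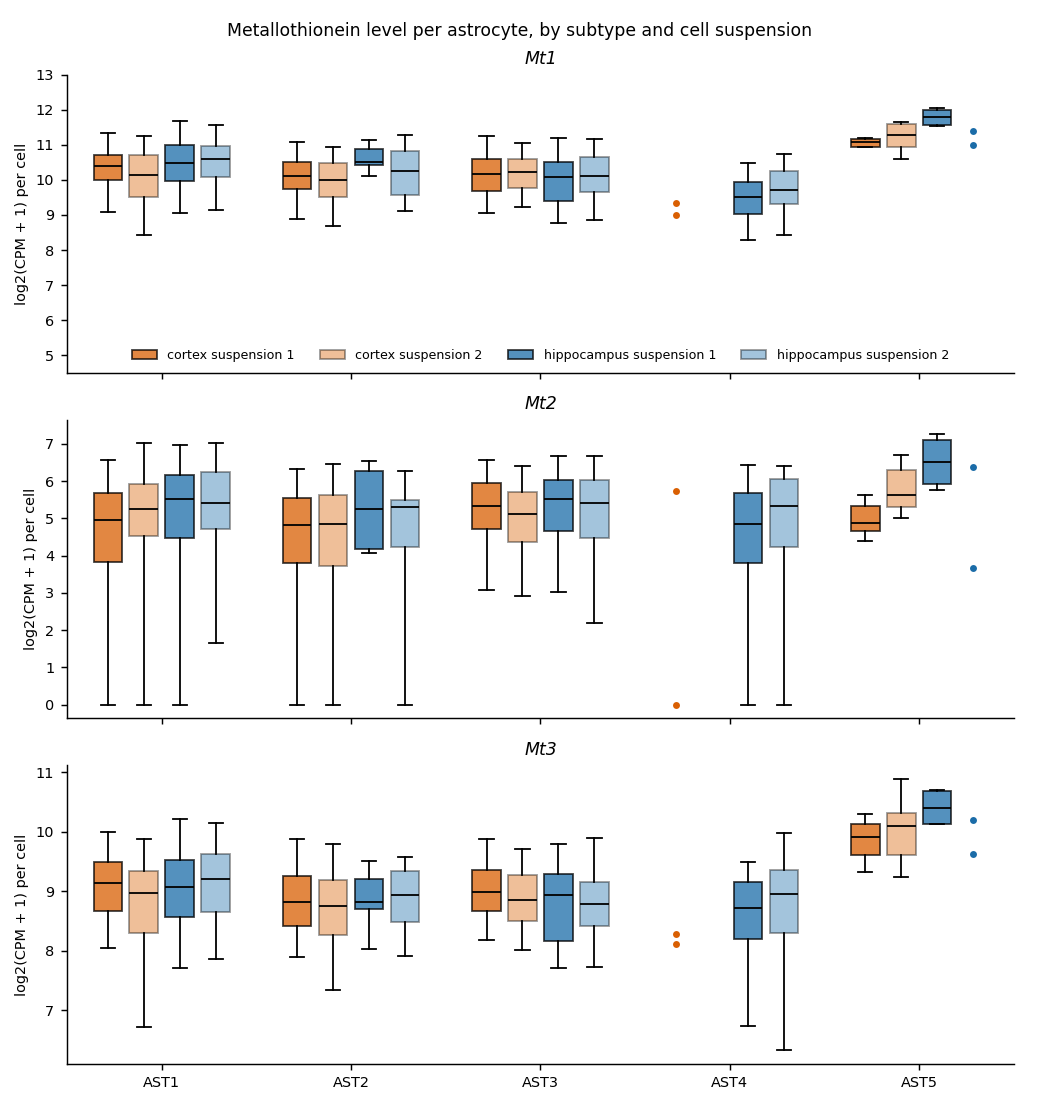
Level of each metallothionein in single astrocytes, as log2(CPM + 1) on a separate vertical axis for each gene, by subtype and cell suspension. Boxes span the quartiles with the median as a line and whiskers from the 5th to the 95th percentile, and groups under 5 cells are drawn as points. Mt1 and Mt3 sit in narrow bands with AST5 highest, and Mt2 reaches down to 0 in AST1, AST2 and AST4.

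AST5 had the highest levels of Mt1 and Mt3 in each suspension with an AST5 sum, and AST4 had the lowest Mt1 in both of its suspensions. In CPM of summed counts, Mt1 in AST1 stood at 1349 and 1249 in cortex suspensions 1 and 2 and at 1678 and 1640 in hippocampus suspensions 1 and 2. AST2 had 1230 and 1083 in cortex and 1629 and 1350 in hippocampus. AST3 had 1261 and 1223 in cortex and 1245 and 1268 in hippocampus. AST3 was therefore nearly level across the 4 suspensions, while in AST1 and AST2 both hippocampal values lay above both cortical ones.

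AST4, a hippocampal subtype with stem cell features, gave 811 and 980 CPM of Mt1 in its 2 hippocampal sums of 41 and 48 cells. AST5, a rare subtype with 8, 10 and 6 cells in its sums, gave 2177 and 2641 CPM in cortex suspensions 1 and 2 and 3363 in hippocampus suspension 1. As mean and SD over suspensions, Mt1 ran from 2727 ± 598 (n = 3) in AST5 through 1479 ± 212.2 (n = 4) in AST1, 1323 ± 231.5 (n = 4) in AST2 and 1249 ± 20.1 (n = 4) in AST3 to 895.5 ± 118.9 (n = 2) in AST4. The ranges of AST1, AST2 and AST3 overlapped, whereas every AST5 value lay above and every AST4 value below all of theirs. Within a suspension, Mt1 was higher in AST1 than in AST2 in 4 of 4 and than in AST3 in 4 of 4, by 0.03 to 0.43 on the log2 scale, and AST2 and AST3 split 2 to 2. Per ERCC count, AST1 was above AST2 in 4 of 4 suspensions, but AST1 and AST3 split 2 to 2 (log2 ratios of -0.60 to 0.34) and AST2 was above AST3 in 1 of 4.

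Mt3 was measured in the same sums. Cortical AST1 sums held 564 and 503 CPM of Mt3, hippocampal ones 613 and 622 CPM. In AST2 it was 516, 457, 504 and 519 CPM, and in AST3 548, 494, 528 and 492.9 CPM, in the same order of suspensions. Mt3 thus lay within a narrow range in all 3 large subtypes, and AST1 was above AST2 in 4 of 4 suspensions by CPM and in 3 of 4 per ERCC count.

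AST4 had 440 and 498 CPM of Mt3 and AST5 had 1001, 1155 and 1331 CPM. The mean was 1162 ± 165 (SD, n = 3) in AST5, 575 ± 54.6 (n = 4) in AST1, 516 ± 26.7 (n = 4) in AST3, 499 ± 29.1 (n = 4) in AST2 and 469 ± 41.6 (n = 2) in AST4. All AST5 values stood clear of the other subtypes, and the ranges of AST1, AST2 and AST3 overlapped, while both AST4 values lay below all of AST1. Mt3 in AST4 was below AST3 in 1 suspension and above it in the other, and per ERCC count it was above AST2 in 2 of 2.

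Mt2 gave 38.99, 47.1, 51.7 and 53.8 CPM in AST1, 32.2, 33.3, 45.98 and 37.04 CPM in AST2 and 44.5, 37.2, 49.1 and 45.4 CPM in AST3, each for cortex suspensions 1 and 2 and then hippocampus suspensions 1 and 2. AST4 had 30.6 and 42.1 CPM, and AST5 had 32.01, 65.6 and 110.7 CPM. AST2 was below AST1 and below AST3 in 4 of 4 suspensions, but the ranges of all 5 subtypes overlapped. The highest value, in AST5, came from 6 cells.

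**Figure D2:**
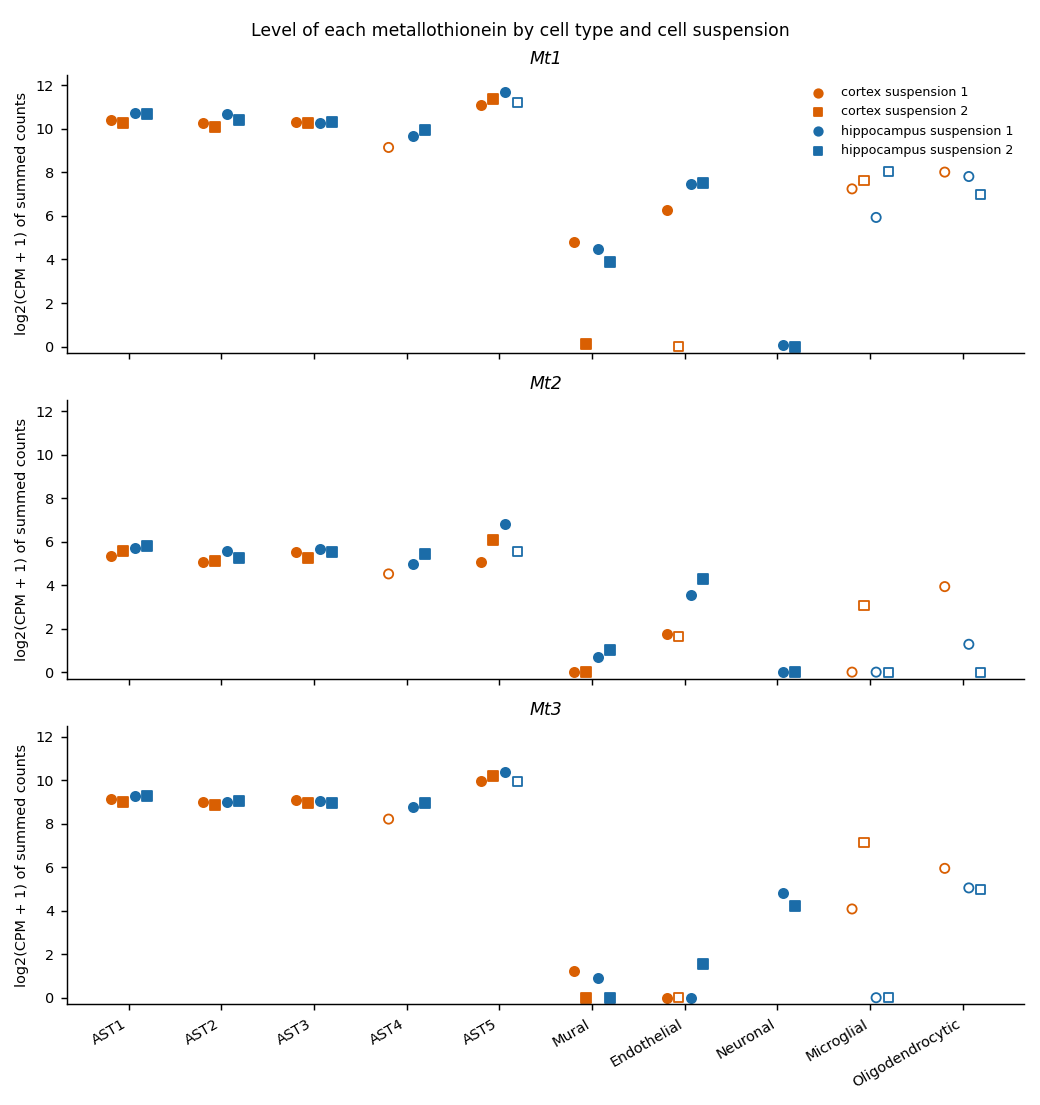
Level of Mt1, Mt2 and Mt3 as log2(CPM + 1) of summed counts, by cell type on the horizontal axis and by cell suspension in colour and shape. Filled points are sums of at least 5 cells and open points sums of fewer. Mt1 and Mt3 were high in all astrocyte subtypes, and in other cells Mt1 was at an intermediate level in microglial, oligodendrocytic and all but 1 of the endothelial sums, the exception being 3 cells at 0, while in neuronal sums Mt3 alone was above 1 CPM.

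When each subtype was compared with the other 4, weighted by cell number, with edgeR's quasi-likelihood test on the summed counts and region as a term, Mt1 fell in AST4 and rose in AST5, and Mt3 rose in AST5. These subtypes were clusters of the same counts, so the test is not independent evidence of a difference. In AST4, Mt1 was lower by 1.03 ± 0.12 (log2, SE) with a Benjamini-Hochberg adjusted p of 0.0003277 over 18233 genes, of which 0.636% were called. Mt3 in AST4 had a log2 difference of -0.53 ± 0.14 (adjusted p = 0.1717) and Mt2 of -0.74 ± 0.62 (adjusted p = 1.0). Mt3 in AST4 passed by DESeq2 (-0.49, adjusted p = 0.02991, 11.5% of genes called) and with the other subtypes weighted equally (-0.63, adjusted p = 0.03199, 2.82% called), and turned to 0.10 with ERCC scaling. The call for Mt1 in AST4 was lost when either hippocampal suspension was left out, which leaves 1 AST4 sum (-0.79 with adjusted p = 0.1018 without the first, -1.08 with 0.1024 without the second), and when libraries were scaled on the ERCC spike-in RNAs (-0.39, adjusted p = 0.5099). It was also lost by limma (-0.80, adjusted p = 0.1051), which called 12.4% of genes. The 8 astrocyte markers summed to 31720 and 29590 CPM in the 2 AST4 sums, against 46100 and 46870 CPM in AST1 of the same suspensions, and the part of that difference in the lower Mt1 was not tested. AST4 sums held a median of 25.0 and 28.1 gene counts per ERCC count, against 19.5 and 20.2 for hippocampal AST1, and Mt1 per ERCC count was lower in AST4 than in AST1 in 2 of 2 suspensions, by 0.36 and 0.76 on the log2 scale, and lower than in AST3 in 2 of 2, while AST2 and AST4 split 1 to 1.

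In AST5 the log2 difference was 0.40 ± 0.085 for Mt1 (adjusted p = 0.005536), 0.47 ± 0.11 for Mt3 (adjusted p = 0.00803) and 0.02 ± 0.46 for Mt2 (adjusted p = 1.0), in a comparison that called 17% of genes. The size of these differences rested on the scaling: with plain CPM, an alternative chosen after the data were seen, they were 1.08 for Mt1 and 1.16 for Mt3, since the TMM factors were 1.34 to 1.63 for AST5 sums against 0.843 to 1.06 for AST1 to AST3. The median of all genes tested in AST5 was -4.55, and 2426 of 3029 genes called lower had a count of 0 in all 3 AST5 sums. Leaving out cortex suspension 2 ended both calls (0.30 with adjusted p = 0.1079 for Mt1, 0.36 with 0.1283 for Mt3), as did leaving out hippocampus suspension 2, which holds no AST5 sum (0.37 with 0.05101 and 0.47 with 0.06845), or the filter on low counts (0.28 with 0.2734 and 0.35 with 0.3349). The cells of the 3 AST5 sums held a median of 14.5 to 18.2 gene counts per ERCC count, against 18.99 to 21.5 in AST1 and 16.5 and 18.0 in hippocampal AST2. Their share of counts from the ribosomal RNA gene Rn18s-rs5 was 1.27% to 1.84%, against 0.845% to 1.06% in AST1. Oligodendrocyte markers summed to 1036 CPM in AST5 of cortex suspension 1, 62.9 in cortex suspension 2 and 0.23 in hippocampus suspension 1. In AST1 to AST3 they summed to 22.5 to 140.3 CPM. The part of these values in the result was not tested.

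None of the 3 members was called in AST1, AST2 or AST3 against the other subtypes, where 0.0384%, 0.0548% and 0.0% of genes were called. In the AST3 comparison edgeR called 0 of 18233 genes, with 1.89% of genes at an unadjusted p under 0.05 and 727 calls by DESeq2. Mt1 in AST1 was nearest to a call, at 0.36 ± 0.079 with an adjusted p of 0.3171, or 0.4087 with 0.004786 where the other subtypes were weighted equally. That setting called 5.52% of genes, all higher, with a median of 1.20 over all genes tested. The median was 0.31 in the main comparison and -0.019 by limma on mean log values, so no general shift was read from these medians.

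**Figure D3:**
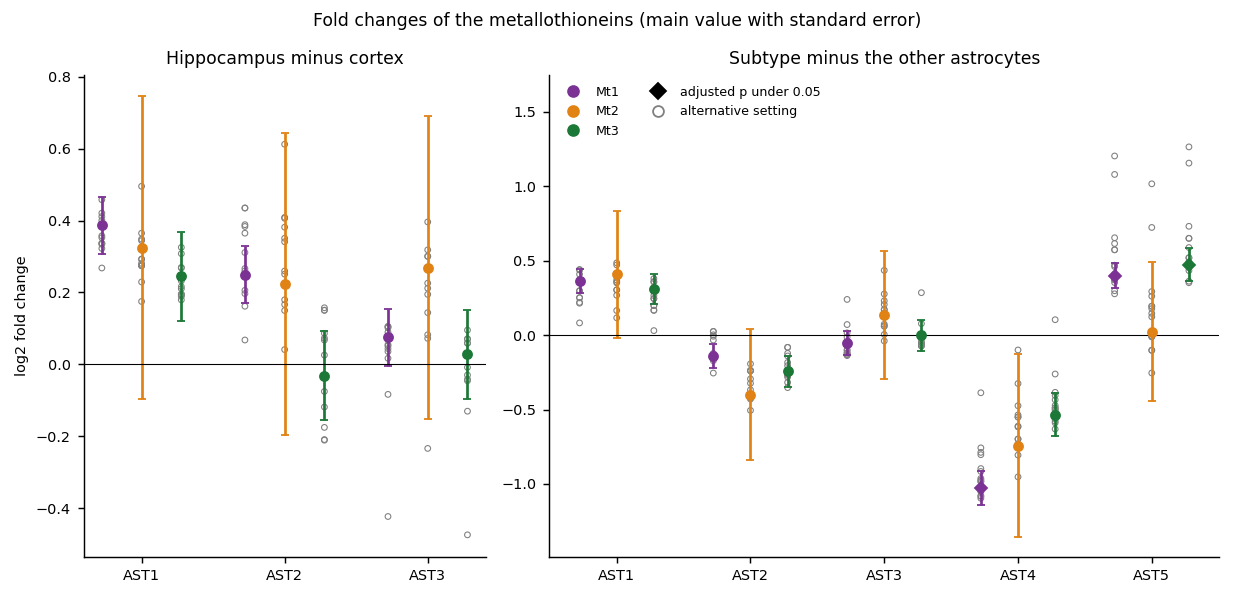
Fold changes of the metallothioneins on the log2 scale, hippocampus minus cortex within AST1 to AST3 at left and each subtype minus the other astrocytes at right. Filled symbols are the edgeR values with their standard errors, diamonds have an adjusted p under 0.05 and open grey circles are the alternative settings. Only Mt1 in AST4 (-1.03) and Mt1 and Mt3 in AST5 (0.40 and 0.47) carry diamonds, and the scatter of the grey circles in AST5 reaches above 1.

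Between regions, Mt1 was higher in the hippocampus in AST1 and AST2 by a margin that did not pass the test over all genes. The log2 difference, hippocampus minus cortex, was 0.39 ± 0.078 in AST1, where the groups did not overlap (unadjusted p = 0.001023, adjusted p = 0.4997), in a comparison that called 0.0109% of 18406 genes. In AST2 it was 0.25 ± 0.078 (adjusted p = 0.164), beside 4.16% of genes called, with hippocampal sums of only 10 and 22 cells against at least 240 in the cortical ones. That share changed widely when a suspension was left out, which leaves a single AST2 sum in its region. In AST3 it was 0.07 ± 0.078 (adjusted p = 1.0), beside 0.0272% of genes called. DESeq2 called Mt1 in AST1 (0.34, adjusted p = 0.01197) and in AST2 (0.44, adjusted p = 0.0001387), where it called 8.51% and 23.3% of all genes. With ERCC scaling the AST2 difference was 0.07 and that of AST3 turned to -0.42 (adjusted p = 0.5708). Cortical AST3 held a median of 29.4 and 30.5 gene counts per ERCC count, against 20.8 and 22.8 in hippocampal AST3.

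The medians of all genes tested were 0.18 in AST1, -0.89 in AST2 and -0.04 in AST3. That of AST2 moved with the setting, from -0.029 by limma on mean log values to -6.01 without hippocampus suspension 2. No shift of the other genes was therefore read from it. Mt3 gave 0.25 ± 0.12 in AST1 (adjusted p = 0.9004), -0.03 ± 0.12 in AST2 and 0.03 ± 0.12 in AST3. The signs of Mt3 in AST2 and AST3 changed with the scaling: with plain CPM they were 0.07 and -0.03. Mt2 gave 0.32 ± 0.42, 0.22 ± 0.42 and 0.27 ± 0.42, with errors larger than the differences.

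Cells of both regions went through reverse transcription on 10 of 11 dates, which allowed a comparison within those dates. Mt1 in AST1 was higher in hippocampus on 8 of 10 dates with at least 3 cells of each region, with a median log2 difference of 0.46 (range -0.27 to 0.97). For AST2 it was higher on 5 of 7 dates (median 0.39) and for AST3 on 6 of 10 (median 0.04). These dates share the same 4 suspensions and are no added replicates.

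Whether the regional difference itself differed between subtypes was tested in the same fit, and no member passed. For Mt1 the region effect was larger in AST1 than in AST3 by 0.31 ± 0.11 (unadjusted p = 0.02172, adjusted p = 0.7594) in a contrast that called 0.0% of genes, with 1205 genes at an unadjusted p under 0.05 and 1639 calls by DESeq2. AST1 minus AST2 gave 0.14 ± 0.11 for Mt1 (adjusted p = 0.6169, 3.18% of genes called) and AST2 minus AST3 gave 0.18 ± 0.11 (adjusted p = 0.6367, 2.53% called). The 6 contrasts for Mt2 and Mt3 had adjusted p-values of 0.4662 to 1.0.

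The balance between the members was read from ratios. Since a ratio within a sum does not depend on the scaling of libraries, Mt3 to Mt1 was compared as a ratio of counts, which was 0.310 to 0.542 over the 17 astrocyte sums (median 0.418), or 0.317 to 0.555 per exon length. It was highest in AST4, at 0.542 and 0.509, where Mt1 was called lower and Mt3, by edgeR, was not. Cortical AST1 had ratios of 0.418 and 0.402 and hippocampal AST1 0.365 and 0.379, while cortical AST2 had 0.420 and 0.421 and hippocampal AST2 0.310 and 0.385. Cortex and hippocampus did not overlap in either subtype, with a log2 difference of -0.14 and -0.29, and the two-sided exact permutation test gave its smallest possible p of 0.3333 for 2 suspensions against 2 in both. As a median over cells of the ratio per cell, the AST1 groups overlapped (-0.13, p = 0.6667) and the AST2 groups did not (-0.21, p = 0.3333), by the same exact test. In AST3 the ratios of the 2 regions overlapped (0.434 and 0.404 against 0.424 and 0.389, p = 0.6667). The ratio of Mt2 to Mt1, in which an unknown share of Mt2 reads may be missing, was 0.0147 to 0.0430, and its regional log2 differences were -0.05 (p = 1.0) in AST1, -0.03 (p = 1.0) in AST2 and 0.20 (p = 0.3333, no overlap) in AST3, each by the exact permutation test. The AST3 groups overlapped as a median over cells (0.26, exact p = 0.6667). These are 6 comparisons, none of which could reach 0.05.

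Plates of a suspension differed from each other as well. The median Mt1 level of the astrocytes of a plate was 968 to 1465 CPM over the 8 plates of cortex suspension 1, 853 to 1458 in cortex suspension 2, 988 to 1823 in hippocampus suspension 1 and 1087 to 1641 in hippocampus suspension 2. Plate medians of Mt3 varied by a factor of 1.96 to 2.23 within a suspension, against 1.51 to 1.84 for Mt1 and 1.52 to 1.76 for Mt2. No plate stood apart from the other 7 by Dixon's criterion.

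**Figure D4:**
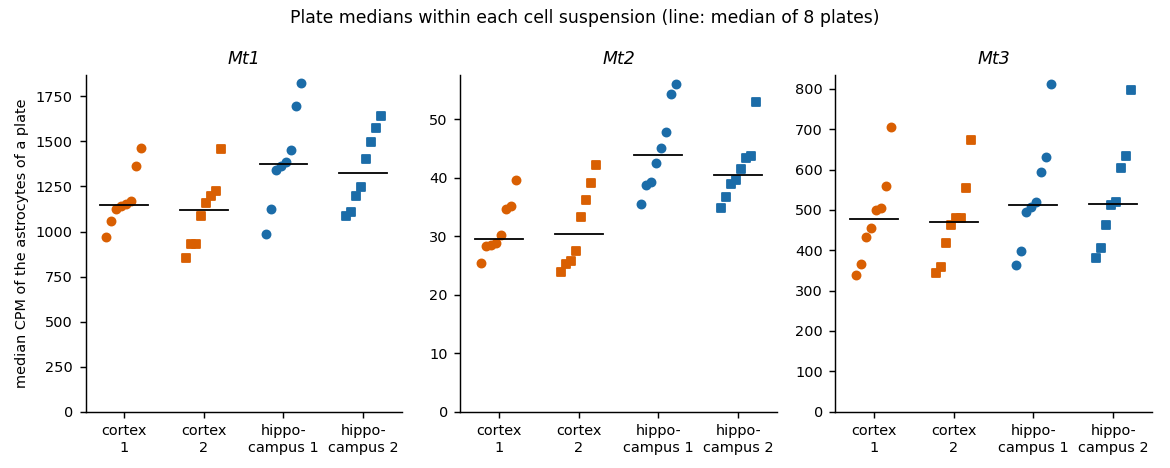
Median level (CPM, linear axis from 0) of each metallothionein over the astrocytes of a plate, for the 8 plates of each cell suspension, with the line at the median of the 8. Plates overlap between cortex and hippocampus for all 3 genes, and the Mt3 medians differ up to 2.23-fold between plates of 1 suspension.

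Over single cells Mt1 varied together with Mt2 and with Mt3, and Mt2 with Mt3 more weakly. Within the 12 groups of at least 40 cells, Spearman's rho of log2(CPM + 1) between Mt1 and Mt2 was 0.216 to 0.610 (median 0.380) and between Mt1 and Mt3 0.275 to 0.535 (median 0.391), above 0 in 12 of 12 groups for both pairs. Between Mt2 and Mt3 it was -0.0776 to 0.279 (median 0.151). The cells of a group share a suspension and a denominator, and the values are descriptions with no test. After each member was centred on its plate, a step chosen after the data were seen, the medians were 0.405, 0.295 and 0.114, and after thinning to equal depth they were 0.282, 0.338 and 0.133.

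Against the gene counts of a cell, rho was -0.265 to 0.245 for Mt1, -0.1761 to 0.2017 for Mt2 and -0.1785 to 0.427 for Mt3. Against gene counts per ERCC count, it was -0.268 to 0.0284 for Mt1, -0.0782 to 0.1167 for Mt2 and -0.375 to 0.1022 for Mt3. Per ERCC count the medians between members were higher, at 0.549 for Mt1 and Mt2, 0.595 for Mt1 and Mt3 and 0.371 for Mt2 and Mt3, where the shared divisor adds to the correlation. The strongest group for Mt1 and Mt2 was AST4 of hippocampus, at 0.610, and the weakest were the cortical AST2 groups, at 0.216 and 0.255.

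**Figure D5:**
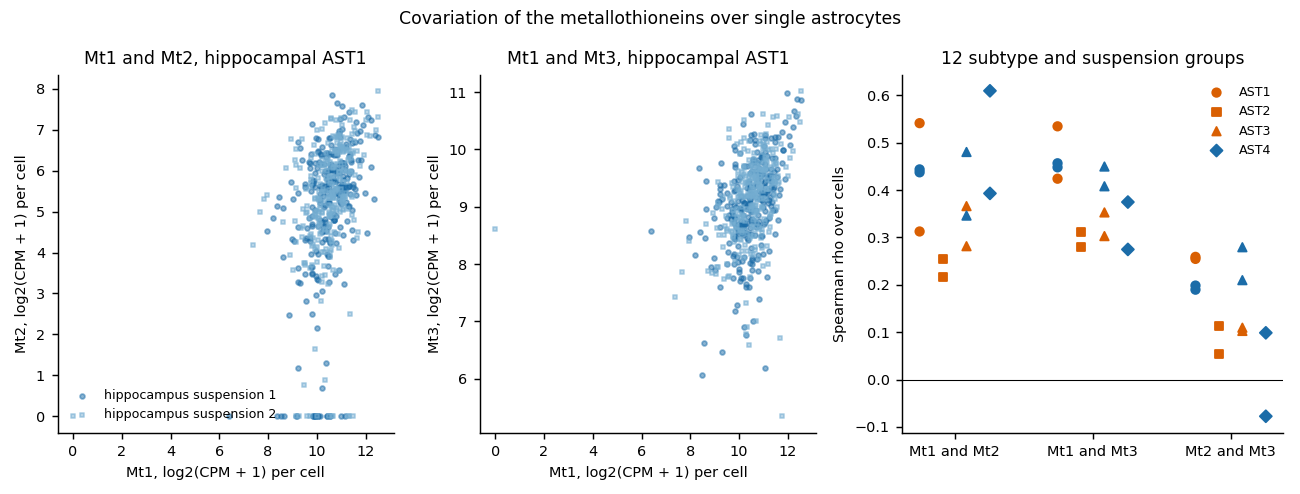
Mt2 and Mt3 against Mt1 as log2(CPM + 1) in single hippocampal AST1 cells of both suspensions, and Spearman's rho over cells for the 3 pairs in the 12 groups of at least 40 cells, with cortex in orange and hippocampus in blue. Mt1 rises with Mt2 and with Mt3 across cells, and rho is lowest for Mt2 with Mt3.

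Among 1360 genes found in more than 25% of cells of every group, the gene most like Mt1 was Prdx6, a peroxiredoxin that reduces peroxides, with a mean rho of 0.248 over the 12 groups (range 0.105 to 0.527). Gstm5, a glutathione transferase (0.207), Ppia, a peptidyl-prolyl isomerase (0.202), Cfl1, which encodes the actin-severing protein cofilin (0.202), and Dbi, which binds acyl-CoA (0.197), came next. Prdx6 was also first for Mt2, at 0.153, followed by Snx3 (0.132), Gm7204 (0.125), Ndufb3 (0.123) and Id2 (0.120). Mt3 was most like Aldoc, the brain form of the glycolytic enzyme aldolase, at 0.235, then Dbi (0.229), Actb (0.227), Ppia (0.227) and Prdx1 (0.193). The lowest group was below 0 for Ppia with Mt1 (-0.070) and for Gm7204 (-0.070) and Ndufb3 (-0.073) with Mt2. With Mt3 it was below 0 for Actb (-0.064), Ppia (-0.144) and Prdx1 (-0.106). The other genes named here were above 0 in 12 of 12 groups. These values were not centred on plates, and the part of plate differences in the ranking was not tested. For comparison, the mean rho of Mt1 was 0.390 with Mt2 and 0.385 with Mt3, and the median over all 1360 genes was 0.0389 for Mt1, 0.0229 for Mt2 and 0.0330 for Mt3. No other gene of the 1360 was as close to Mt1 as Mt2 and Mt3 were. Between Mt2 and Mt3 the mean rho was 0.149, below that of Mt2 with Prdx6 and below that of Mt3 with each of its 5 nearest genes.

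Mural cells were nearly without them: Mt1 was found in 22 of 135 cells (16.3%, 10.5% to 23.63%) and Mt2 and Mt3 in 5 each (3.70%, 1.21% to 8.43%). Summed Mt1 in mural cells was 26.6 and 0.0676 CPM in cortex suspensions 1 and 2 and 21.6 and 13.8 CPM in hippocampus suspensions 1 and 2, where the astrocytes of all suspensions had a mean of 1364 ± 172.9 CPM (SD, n = 4). By the same edgeR test with region as a term, Mt1 (adjusted p = 0.01469), Mt2 and Mt3 (adjusted p = 0.03016 each) were lower in mural cells than in astrocytes, in a comparison that called 15.0% of genes. Cell types were clusters of these same counts too, so this test and the endothelial and neuronal ones are not independent evidence of a difference. Leaving out cortex suspension 2, with 12 mural cells, kept the call for Mt1 (adjusted p = 0.003969), and leaving out any other suspension ended it (0.1027 to 0.1085), while the calls for Mt2 and Mt3 were lost without any 1 of the 4 (0.1066 to 0.1221). With the suspension as a replicate block, Mt2 (adjusted p = 0.1478) and Mt3 (0.08714) did not pass.

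No member was called between mural cells of the 2 regions: the adjusted p was 0.9999 for Mt1, 0.5338 for Mt2 and 0.9999 for Mt3, in a comparison in which edgeR called 0 genes (0.0%), with 961 at an unadjusted p under 0.05 and 1371 calls by DESeq2, of which Mt2 was 1 (adjusted p = 0.000731). Mt2 had counts in 5 of 96 hippocampal mural cells (5.21%, 1.71% to 11.7%) and in 0 of 39 cortical ones, which allows a share of up to 7.69%, taken as 3 cells of the total, or 9.03% by the exact interval. These intervals cover cells pooled over 2 suspensions a region and are no test between regions. As a share of the astrocyte level of the same suspension, mural Mt1 had a median of 1.17%. Of the astrocyte markers, Atp1b2 was at 60.4%, the glutamate transporter Slc1a3 at 2.07%, Gjb6 at 0.837% and the other 5 at 0% to 0.134%. What part of the Mt1 counts of mural cells came with astrocyte RNA was not tested.

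Mt1 was found in 17 of 30 endothelial cells (56.7%, 37.4% to 74.5%), Mt2 in 10 (33.3%, 17.3% to 52.8%) and Mt3 in 1. Summed Mt1 was 76.5 CPM in cortex suspension 1 (9 cells), 176.3 CPM in hippocampus suspension 1 (6 cells) and 182.96 CPM in hippocampus suspension 2 (12 cells), and the 3 cells of cortex suspension 2 had 0 counts. Single endothelial cells reached 712 CPM of Mt1, a level within the astrocyte range, and 12 of 30 were above 100 CPM. The median of Mt1 over suspensions was 8.75% of the astrocyte level, where Atp1b2 was at 13.9% and the other 7 astrocyte markers were at 0% to 0.399% (Aldoc). In hippocampus suspension 1 the endothelial sum also held Aldoc at 1.73% and Gja1 at 2.19% of the astrocyte level, beside 11.5% for Mt1. The endothelial sums also held 10010 to 26380 CPM of 8 mural markers, against 49690 to 59950 CPM in mural sums. The part of astrocyte or mural RNA in these endothelial values was not tested. The difference from astrocytes did not pass the edgeR test for Mt1 (adjusted p = 0.06353), Mt2 (0.1552) or Mt3 (0.05508), beside 5.59% of genes called. It passed for Mt1 without cortex suspension 2 (0.01615, 2.81% of genes called), without the region term (0.04903, 18.5% called), with thinned cells (0.01366, 12.9% called), by DESeq2 (0.007041, 36.5% called) and by limma (1.811e-06, 27.9% called). Mt3 also passed without the region term, with thinned cells, by DESeq2 and by limma (1.064e-08 to 0.02684), and Mt2 passed by DESeq2 (0.01072) and limma (6.792e-05).

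In neuronal cells Mt3 was the member that was present. Mt3 was found in 7 of 17 neuronal cells (41.2%, 18.4% to 67.1%), all without Mt1, with 27.1 CPM in hippocampus suspension 1 (8 cells) and 17.4 CPM in hippocampus suspension 2 (9 cells). These sums rest on 3 of 8 and 4 of 9 cells, with a cell median of 0 in both and highest single cells of 202.6 and 45.6 CPM. Mt1 was a single count in 1 of 17 cells and Mt2 was at 0 of 17, which allows a share of up to 17.6%, taken as 3 cells of the total, or 19.5% by the exact binomial interval. Mt1 was lower than in astrocytes (adjusted p = 0.006732) in a comparison that called 2.85% of genes, a call lost when either neuronal sum was left out (0.2446 and 0.2906). For Mt2 the adjusted p was 0.05327 and for Mt3 0.2017. Both passed with thinned cells (0.04625 and 0.01025, 4.74% of genes called) and by limma (1.159e-05 and 2.065e-07, 27% called), and Mt2 by DESeq2 (1.937e-10, 30.4% called). The neuronal sums held Mt3 at a median of 3.81% of the astrocyte level. Of the 8 astrocyte markers, Atp1b2, which encodes the antigen of the sort, was at 7.73% and the other 7 were at 0.00294% (Slc1a3) to 0.285% (Aldoc). The part of astrocyte RNA in the neuronal Mt3 values was not tested.

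Microglial and oligodendrocytic cells stayed below 5 cells in every suspension and were not tested. Mt1 was found in 8 of 11 microglial cells, with 150.7, 198.8, 60.1 and 261.9 CPM over the 4 suspensions in the order given above, and in 8 of 9 oligodendrocytic cells, with 257.9 CPM in cortex suspension 1, 223.99 in hippocampus suspension 1 and 127.2 in hippocampus suspension 2. Mt3 was found in 3 microglial and 6 oligodendrocytic cells. Both classes held astrocyte markers, with a summed level of 115.5 to 7731 CPM in microglial and 1191 to 6993 CPM in oligodendrocytic sums. The microglial sum with most of them, 7731 CPM in cortex suspension 2, was also that with most Mt3, at 140 CPM. The microglial sum with most Mt1, in hippocampus suspension 2, held 395 CPM of these markers, but all its Mt1 came from 1 of 3 cells. The part of astrocyte RNA in these values was not tested.

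Genes that handle the same metals and genes that respond to the known inducers were read beside the members from lists. MTF1, the zinc sensor, was sparse: Mtf1 had 4.08 to 11.8 CPM in astrocytes and was called in no comparison. Slc30a1, the plasma membrane zinc exporter and a classical MTF1 target, had 5.34 to 10.5 CPM in astrocytes and was called in AST5 alone, with 0 counts in all 3 AST5 sums (adjusted p = 0.02502). Slc39a12, a zinc importer of the brain, was the most abundant zinc transporter of these lists in astrocytes, at 1087 to 1332 CPM. It was at most 0.129 CPM in mural, endothelial and neuronal sums and lower in all 3 (adjusted p = 8.213e-05, 0.0002352 and 0.0004765).

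Within AST1 and AST3, as in mural cells, 0 genes of the 9 lists were called between regions, beside the 0.0109%, 0.0272% and 0.0% of all genes. In AST2, Fos, an immediate early gene, was higher in hippocampus (282.9 and 279.1 CPM against 51.5 and 25.8), and 5 listed genes were lower, beside 4.01% of all genes called lower and 0.147% higher. The superoxide dismutase Sod1, which binds copper and zinc, had 492 and 566 CPM against 886 and 808. The oxidative stress genes Hmox1, Gclc and Nqo1 and the reactive astrocyte gene Vim were at 0 or 1 count in the hippocampal AST2 sums of 10 and 22 cells and at 8.82 to 27.9 CPM in the cortical sums of at least 240 cells. None of these AST2 calls held when either cortical suspension was left out, which leaves a single cortical AST2 sum.

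In AST4, where Mt1 was lower, 0 of 7 zinc exporters, 0 of 12 zinc importers and 0 of 9 copper genes tested were called, beside 0.636% of all genes. Btg2, an immediate early gene, was higher (312.9 and 384 CPM against 25.7 to 176.6 in AST1 to AST3), and so was the iron oxidase Cp, of which 1 AST4 sum held 46.1 CPM and the other 0.0484. Neither call held without hippocampus suspension 2, which leaves 1 AST4 sum. In AST5, where Mt1 and Mt3 were higher, Sod1 (1403 to 2305 CPM against 492 to 1004 in AST1 to AST3) and the ferritin heavy chain Fth1 (1756 to 2708 CPM against 654 to 1346) were the 2 listed genes called higher. Called lower there were 3 zinc exporters (Slc30a1, Slc30a4 and Slc30a6), 2 zinc importers (Slc39a11 and Slc39a14), 3 copper genes (Atp7a, Atp7b and Slc31a2), Slc11a2, Hif3a, Vim and 8 of 14 immediate early and heat shock genes, with Klf6, Btg2, Ier2 and Zfp36 at 0 in all 3 AST5 sums of 24 cells in all. Over all genes tested in AST5, 16.6% were called lower and 0.356% higher.

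Against astrocytes, immediate early and heat shock genes were the list with most calls in vessel cells, with 12 of 15 called higher in mural cells and 9 of 15 in endothelial cells, where 2.37% and 1.6% of all genes were called higher. The endothelial sums held the mural marker counts given above. Fosb had 161.5 to 535 CPM in mural cells and Junb 2243 to 2531 CPM in endothelial cells, against at most 6.21 and 76.9 CPM in astrocytes. The zinc importer Slc39a10 was higher in endothelial cells (1215 to 2407 CPM against 38.3 to 76.7), as were Sgk1 and Nfkbia of the glucocorticoid response. In mural cells Sgk1 and the iron genes Cp and Ftl1 were higher, and Hif3a, Nqo1 and Hmox1 had 0 counts. Sod1 was lower in both, at 446 to 522 CPM in mural and 517 to 923 CPM in endothelial sums against 663 to 916 CPM in astrocytes, with endothelial and astrocyte values that overlapped before TMM scaling, and in neuronal cells the zinc importer Slc39a1 (40.2 and 44.1 CPM against 238.2 to 272.6) and Fth1 were lower. Fth1 had 535.5 and 961 CPM in neuronal sums against 836.5 to 976 CPM in astrocytes, which overlapped before TMM scaling.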

How the data were processed

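Single-cell libraries were made with Smart-seq2 from ACSA-2-sorted cells of mouse cortex and hippocampus, with ERCC spike-in RNAs added. Per the labels and the study's methods, the authors checked reads with FastQC (0.11.4), aligned them with STAR (2.5.2b) to GRCm38 and counted uniquely mapped reads per gene with HTSeq, and low-quality cells were removed before deposit. The deposited files hold unnormalized counts for each cell, made without molecular identifiers, so that PCR copies count as reads. Of 2031 cells, 2030 were read from their own files and 1 from the series-wide table. Another 31 columns of that table were checked against the files of the same cells and had equal totals, and 1999 columns were not used. Cell types were the authors' labels. No doublet caller was run here.

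Counts were summed per type and suspension where at least 5 cells were present, and tested with edgeR (4.0.16, R 4.3.3) by its quasi-likelihood test with TMM factors, filterByExpr and Benjamini-Hochberg adjustment over all genes tested at 0.05. Subtype and type fits had region as a term. CPM were per sum or per cell, and log2(CPM + 1) was used for correlations. Alternatives were DESeq2 (1.42.0), limma (3.58.1), DESeq2 size factors, ERCC scaling, plain CPM, thinning to 50000 counts, no filter, other cell minimums, no region term, the replicate block and leaving out each suspension. Descriptions used Python 3.11.15, NumPy 2.4.6, SciPy 1.17.1 and pandas 2.3.3. The scripts were tested on simulated data. The 3 members and the gene lists were chosen with earlier results of these data known. Named in the text were the members and Mt4, up to 4 called genes per list and comparison by size of change, Mtf1 and Slc30a1 always, and the 5 genes most like each member by mean Spearman's rho. Genes outside that rule that are named as markers or measures are Slc1a3, Aqp4, Aldoc, Gja1, Gjb6, Atp1b2, Rn18s-rs5 and Gm45774. There were 2 suspensions a region. Fits over several subtypes or types took the sums of 1 suspension as separate. Their p-values thus rest on the spread among sums, with 6 residual degrees of freedom over 12 region sums and 11 over 17 subtype sums.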

Additional observations from a re-analysis of the deposited data

How the results depend on the processing

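No member that was called changed direction under any alternative that was run. Among the values that answer a comparison, 561 of those recomputed kept their direction and, where a threshold was applied, their side of it. Another 71 turned sign, 23 passed the threshold anew and 27 lost it. Ratios and values within dates were compared by direction alone. Of the recomputed shares of cells and correlations, 58 stayed within the interval or range of the main values and 17 moved out of it. In what follows "region" is hippocampus minus cortex within a subtype, "by region" the difference of that effect between 2 subtypes, and a subtype alone its difference from the other astrocytes, all on the log2 scale. Signs turned for uncalled values as follows, and the cause was not tested. With DESeq2, the value was 0.15 for Mt3 AST2 region, -0.13 for Mt2 AST1 minus AST2 by region, -0.098 for Mt1 AST1 minus AST2 by region, -0.026 for Mt2 AST1 minus AST3 by region, 0.092 for Mt3 AST2 minus AST3 by region, 0.11 for Mt2 AST2 minus AST3 by region, 0.025 for Mt1 AST2. With DESeq2 size factors, the value was 0.15 for Mt3 AST2 region, -0.13 for Mt2 AST1 minus AST2 by region, -0.098 for Mt1 AST1 minus AST2 by region, -0.026 for Mt2 AST1 minus AST3 by region, 0.092 for Mt3 AST2 minus AST3 by region, 0.11 for Mt2 AST2 minus AST3 by region, 0.025 for Mt1 AST2. With plain CPM (chosen after the data were seen), the value was 0.073 for Mt3 AST2 region, -0.0299 for Mt3 AST3 region, -0.048 for Mt2 AST1 minus AST2 by region, -0.012 for Mt1 AST1 minus AST2 by region, 0.10 for Mt3 AST2 minus AST3 by region, 0.13 for Mt2 AST2 minus AST3 by region. With limma on mean log values, the value was 0.086 for Mt3 AST2 region, -0.13 for Mt3 AST3 region, -0.084 for Mt1 AST3 region, -0.27 for Mt2 AST1 minus AST2 by region, -0.12 for Mt1 AST1 minus AST2 by region, 0.22 for Mt3 AST2 minus AST3 by region, 0.53 for Mt2 AST2 minus AST3 by region. Within dates, the value was 0.16 for Mt3 AST2 region. With ERCC scaling, the value was -0.47 for Mt3 AST3 region, -0.23 for Mt2 AST3 region, -0.42 for Mt1 AST3 region, 0.26 for Mt3 AST2 minus AST3 by region, 0.28 for Mt2 AST2 minus AST3 by region, 0.28 for Mt3 AST3, 0.24 for Mt1 AST3, 0.10 for Mt3 AST4. With cells thinned, the value was -0.042 for Mt3 AST3 region, -0.10 for Mt2 AST1 minus AST2 by region, 0.19 for Mt2 AST2 minus AST3 by region, -0.039 for Mt2 AST3. With the other subtypes weighted equally, the value was 0.0017 for Mt1 AST2, 0.0025 for Mt3 AST3, 0.071 for Mt1 AST3. With at least 10 cells a sum, the value was 0.0083 for Mt3 AST3. With the suspension as a replicate block, the value was 2.2e-05 for Mt3 AST3, -0.0047 for Mt2 AST5. Without the low-count filter, the value was -0.10 for Mt2 AST5. Without the region term, the value was -0.011 for Mt2 AST5. With median over cells of (count + 1) ratios, the value was 0.03 for Mt2/Mt1 in AST1, 0.15 for Mt2/Mt1 in AST2.

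The side of the threshold changed for these log2 differences. With DESeq2, the value was 0.34 for Mt1 AST1 region, 0.44 for Mt1 AST2 region, -0.49 for Mt3 AST4. With DESeq2 size factors, the value was 0.44 for Mt1 AST2 region. With limma on mean log values, the value was -0.80 for Mt1 AST4. With ERCC scaling, the value was -0.39 for Mt1 AST4. With the other subtypes weighted equally, the value was 0.41 for Mt1 AST1, -0.63 for Mt3 AST4. Without the low-count filter, the value was 0.35 for Mt3 AST5, 0.28 for Mt1 AST5. For adjusted p-values it changed as follows. With DESeq2, the value was 0.000731 for Mt2 mural region, 2.414e-06 for Mt3 Endothelial, 0.01072 for Mt2 Endothelial, 0.007041 for Mt1 Endothelial, 1.937e-10 for Mt2 Neuronal. Without the low-count filter, the value was 0.05123 for Mt3 Mural, 0.06327 for Mt2 Mural. With the suspension as a replicate block, the value was 0.08714 for Mt3 Mural, 0.1478 for Mt2 Mural. With cells thinned, the value was 0.0003776 for Mt3 Endothelial, 0.01366 for Mt1 Endothelial, 0.01025 for Mt3 Neuronal, 0.04625 for Mt2 Neuronal. With limma on mean log values, the value was 1.064e-08 for Mt3 Endothelial, 6.792e-05 for Mt2 Endothelial, 1.811e-06 for Mt1 Endothelial, 2.065e-07 for Mt3 Neuronal, 1.159e-05 for Mt2 Neuronal. Without the region term, the value was 0.02684 for Mt3 Endothelial, 0.04903 for Mt1 Endothelial. Leaving out 1 suspension at a time gave log2 differences of -0.18 to 0.067 for Mt3 AST2 region, -0.046 to 0.095 for Mt3 AST3 region, -0.22 to 0.35 for Mt2 AST1 minus AST3 by region, -0.25 to 0.076 for Mt3 AST2 minus AST3 by region, -0.23 to 0.11 for Mt2 AST2 minus AST3 by region, -0.51 to 8.15 for Mt1 mural region, -0.051 to 0.077 for Mt3 AST3, -0.12 to 0.015 for Mt1 AST3, -1.08 to -0.79 for Mt1 AST4, 0.36 to 0.52 for Mt3 AST5, -0.25 to 0.26 for Mt2 AST5, 0.30 to 0.46 for Mt1 AST5, -0.25 to 0.14 for Mt2/Mt1 in AST1, -0.14 to 0.089 for Mt2/Mt1 in AST2, -0.11 to 0.018 for Mt3/Mt1 in AST3. It gave adjusted p-values of 0.5465 to 0.9999 for Mt3 mural region, 0.1066 to 0.1221 for Mt3 Mural, 0.1066 to 0.1113 for Mt2 Mural, 0.003969 to 0.1085 for Mt1 Mural, 0.01615 to 0.2533 for Mt1 Endothelial, 0.0004735 to 0.2906 for Mt1 Neuronal. With 1 sum left in a group, that sum is assumed to vary like the others.

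Same-numbered cortical and hippocampal suspensions shared only a number, with correlations of their deviations of -0.00869 to 0.00887. The replicate block gave 0.39 for Mt1 in AST1 by that number (adjusted p = 0.781) and changed no regional call of a member. Sums of 1 suspension share mice in the region, subtype and type fits, which took them as separate. In the subtype fit, deviations of AST1 and AST3 of 1 suspension correlated at 0.642 to 0.732, and those of other pairs at -0.786 to 0.464. Pairs from different suspensions of a region were not compared, and the fit had a single region term for all subtypes. What part of these values came from shared mice was therefore not tested. The replicate block changed no call of a member in the subtype and type fits other than the mural ones given above. Depth limits the share of cells with Mt2, which was 92.1% of astrocytes in full and 71.8% after thinning. Simulated log2 changes of 2 with the fitted spread were recovered in 0% of genes for AST1 between regions and 0.5% for AST5, against 98% and 96% with little spread, so an uncalled gene of ordinary spread is no evidence of an equal level. Mt1 and Mt3 had standard errors of 0.078 and 0.12 in AST1 between regions and of 0.085 and 0.11 in AST5. Recovery of genes with errors of that size was not read apart.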
